A study of Mus musculus with 6 samples.

Results

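NUP214 peaks of leukemia stem cells (LSCs) that kept Nup214 were compared with those of normal hematopoietic stem cells (HSCs), the cells that maintain blood formation. The comparison uses 4 of the 6 libraries of a mouse bone marrow series: 2 titled as control LSCs and 2 titled as HSCs. Control LSCs were sorted as lineage-negative, Sca-1-negative cells positive for c-Kit, CD34 and CD16/32 from Nup214fl/+ mice whose acute myeloid leukemia was driven by MLL-AF9, a fusion oncogene. HSCs were sorted as CD150+ and CD48- cells of the LSK fraction (lineage-negative, Sca-1+, c-Kit+) from Nup214fl/+ mice, with no leukemia named for them. All 4 libraries thus carry the same floxed allele and no Cre. The other 2 libraries, Nup214-HET LSCs (Nup214fl/+,Tie2-Cre), served to define regions called everywhere and are given where they bear on a value. The groups differ in leukemia and also in sorting gate, so the disease and the stage of differentiation cannot be told apart. The labels give the cell type of all 6 libraries as hematopoietic stem cell, so the groups rest on the titles. Nothing in the labels ties the pair of libraries in a group to different animals. The p-values therefore measure the spread between libraries, which may be technical. No library is labelled as made without the NUP214 antibody, so cutting by the transposase that is unrelated to NUP214 was not measured.

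NUP214 is a protein of the cytoplasmic face of the nuclear pore complex, the channel through which RNA and protein pass between nucleus and cytoplasm. It takes part in the export of mRNA and in export through the receptor CRM1, and fusions of its gene occur in leukemia. Some pore proteins also contact chromatin, either at the pore or away from it. In CUT&Tag an antibody brings a transposase to its target, and the DNA cut nearby is sequenced, so a peak marks DNA that lay near the antibody's target. A peak does not measure expression of a gene.

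The lists were read in 2 ways, as deposited and cut to the same number of peaks by statistical strength. In both, 109 regions called in all 6 libraries (123.7 kb) were set aside. A region belongs to a group where peaks of both its libraries fall in it. A gene-end peak lies within 1 kb of either outermost annotated end of a protein-coding gene, and a distal peak lies farther away. Promoter sequences are shown first for genes whose upstream DNA held a peak in both control LSC libraries, since control LSC peaks were most frequent just upstream of starts. They come from RefSeq (GRCm38.p6, the mm10 assembly) and hold the bases upstream of a start that lie in no annotated gene, written 5′ to 3′ on the strand of the gene. Capitals mark matches to the CCAAT box (CCAAT), the ETS core (CCGGAAG) or the CRE (TGACGTCA) on either strand. The NRF1 motif (GCGCATGCG) and the YY1 motif had no match in these windows. A match describes letters and is no evidence of binding. The windows of the first set also overlapped a peak of HSC library 1 by at least 1 bp. At Samd4b that peak lay at 28436420 to 28436676, so most of the printed bases lie outside it. At Hdgfl2 it lay at 56079072 to 56079489, so both CCAAT matches printed for that gene lie outside it. Hdgfl2 encodes a chromatin reader with a PWWP domain (chr17:56079381-56079598, plus strand), Samd4b an RNA-binding protein (chr7:28436192-28436441, minus strand) and Acss2 an acetyl-CoA synthetase (chr2:155517793-155518042, plus strand).
Hdgfl2: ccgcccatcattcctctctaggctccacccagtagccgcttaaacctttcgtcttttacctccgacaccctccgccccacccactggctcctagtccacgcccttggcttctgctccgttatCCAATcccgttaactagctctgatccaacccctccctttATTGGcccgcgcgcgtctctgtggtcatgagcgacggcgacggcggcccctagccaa
Samd4b: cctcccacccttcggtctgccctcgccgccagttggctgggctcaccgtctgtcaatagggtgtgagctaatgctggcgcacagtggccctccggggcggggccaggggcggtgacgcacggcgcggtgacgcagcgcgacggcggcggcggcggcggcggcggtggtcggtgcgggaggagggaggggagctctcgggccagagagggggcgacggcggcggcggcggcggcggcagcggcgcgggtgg
Acss2: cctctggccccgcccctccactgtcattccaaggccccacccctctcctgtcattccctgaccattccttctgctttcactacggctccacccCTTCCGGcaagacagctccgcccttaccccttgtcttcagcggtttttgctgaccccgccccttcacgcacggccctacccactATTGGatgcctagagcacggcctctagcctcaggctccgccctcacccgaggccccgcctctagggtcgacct

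The windows of the second set held a peak in both control LSC libraries and in neither HSC library. Gpbp1 encodes a protein that binds GC-rich promoters (chr13:111490129-111490377, minus strand), Tmem123 a membrane protein (chr9:7763915-7764076, plus strand) and Rab8a a GTPase of vesicle transport (chr8:72160950-72161199, plus strand).
Gpbp1: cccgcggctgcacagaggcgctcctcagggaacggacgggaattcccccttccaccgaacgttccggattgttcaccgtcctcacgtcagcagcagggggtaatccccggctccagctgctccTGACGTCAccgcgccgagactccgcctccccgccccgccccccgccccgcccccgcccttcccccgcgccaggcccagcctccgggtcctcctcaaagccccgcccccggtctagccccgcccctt
Tmem123: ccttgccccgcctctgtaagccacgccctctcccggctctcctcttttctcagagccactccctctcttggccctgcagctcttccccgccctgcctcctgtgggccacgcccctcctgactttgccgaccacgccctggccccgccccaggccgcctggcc
Rab8a: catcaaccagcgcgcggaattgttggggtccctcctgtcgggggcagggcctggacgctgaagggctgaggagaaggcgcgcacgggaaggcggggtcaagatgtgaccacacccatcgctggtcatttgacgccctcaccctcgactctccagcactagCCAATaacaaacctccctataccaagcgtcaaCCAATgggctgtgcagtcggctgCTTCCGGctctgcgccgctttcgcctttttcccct

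Hdgfl2 has the CCAAT box 2 times, both outside the peak of HSC library 1. Acss2 has it 1 time beside 1 ETS core, and Samd4b has none of the 5 motifs. In the second set Gpbp1 has 1 CRE, Rab8a has the CCAAT box 2 times and the ETS core 1 time, and Tmem123 has none. Over the whole 300-base RefSeq windows the GC content was 64.0%, 79.3% and 65.0% for Hdgfl2, Samd4b and Acss2. It was 73.7%, 72.0% and 64.0% for Gpbp1, Tmem123 and Rab8a.

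Control LSC libraries 1 and 2 held 25437 and 10525 peaks on chromosomes 1 to 19, X and Y, and HSC libraries 1 and 2 held 1045 and 634. With the common regions set aside, 25312 and 10394 peaks were left in control LSCs, against 927 and 519 in HSCs. The smaller control LSC list was thus far longer than either HSC list. The means differed by 4.55 on the log2 scale, or 23.4-fold (exact permutation test, two-sided, p = 0.333, n = 2 per group), and no p under 0.333 can be had from 2 against 2 libraries. No source used here gives read totals. A depth was inferred from the peak caller's own columns; relative to control LSC library 2 it was 3.72 in control LSC library 1, and 4.90 and 1.95 in HSC libraries 1 and 2. The order of the libraries by this depth was therefore not their order by peak number. The protocol, which speaks of HSCs, gives 2000 to 5000 cells and 17 to 20 PCR cycles, with no number for each library, so the number of cells and the signal per cell cannot be told apart. The weakest callable summit lay at 10.7 and 30.3 times the background in control LSCs, against 8.61 and 16.1 times in HSCs. Under the highest of these limits, applied to all libraries after the data were seen, 13969 and 10394 peaks remained in control LSCs, against 76 and 121 in HSCs. The limit is that of control LSC library 2, so its list could lose no peak. There it is a summit of 3 reads over a background of 0.0991. The backgrounds were 0.697 and 0.310 in HSCs, so the same multiple asks for more reads there.

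Peaks of control LSCs lay at gene ends far more often than those of HSCs. Gene-end peaks made up 35.5% (95% Wilson interval 34.9 to 36.1) and 39.9% (38.9 to 40.8) of peaks in control LSCs, against 18.9% (16.5 to 21.5) and 2.50% (1.47 to 4.24) in HSCs. Intervals here cover counting error alone. Both control LSC libraries lay above both HSC libraries, and the HSC libraries differed from each other by more than the control LSC libraries did. The means were 37.7% ± 3.10 in control LSCs and 10.7% ± 11.6 in HSCs (SD, n = 2 each), a difference of 27.0 percentage points (exact permutation test, two-sided, p = 0.333). For scale, the gene-end windows cover 2.91% of these chromosomes.

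The difference in place was larger in lists cut to equal length. The length was that of HSC library 2, which kept its whole list, while the other lists kept their strongest peaks alone. Each list was cut to the 634 peaks with the highest −log10 q, and 581 and 568 peaks were left in control LSCs and 518 and 519 in HSCs after the common regions were set aside. Gene-end peaks were then 82.1% and 78.0% in control LSCs, against 21.6% and 2.50% in HSCs, a difference of 68.0 percentage points (exact permutation test, two-sided, p = 0.333, n = 2 per group). The cut did not equalise strength: the weakest −log10 q left was 60.4 and 17.9 in control LSCs, against 3.42 and 1.31 in HSCs. Median peak width was 598 and 380 bp in control LSCs, against 304 and 274 bp in HSCs.

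**Figure D1:**
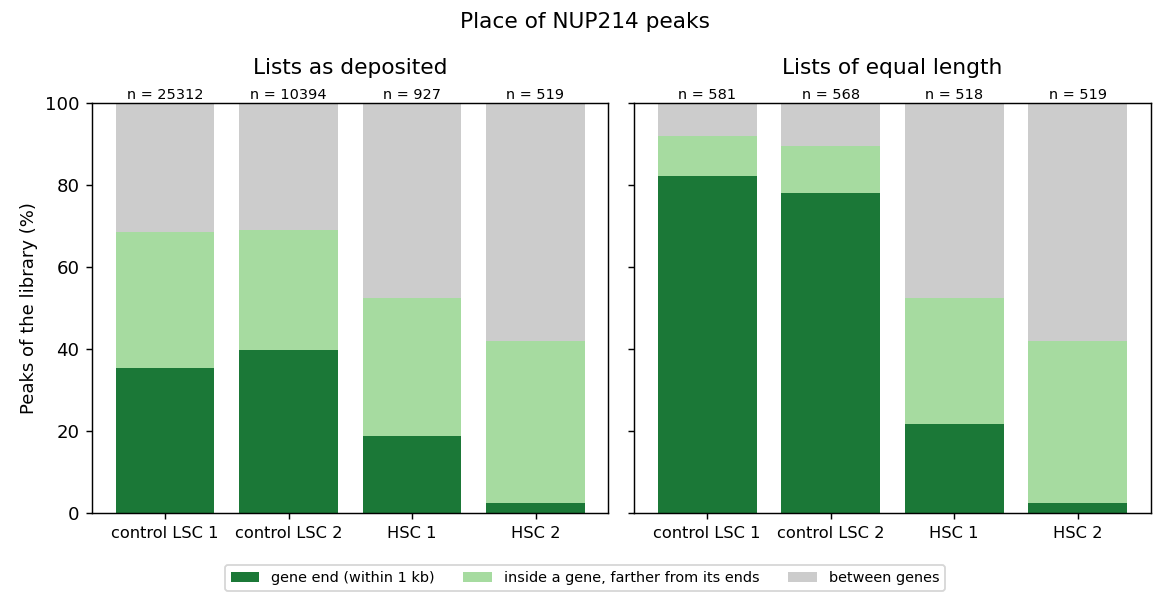
Share of NUP214 peaks at gene ends, inside genes and between genes in each library (bars sum to 100% of the n peaks above them), for lists as deposited and cut to equal length. Gene ends hold 82.1% and 78.0% of the control LSC peaks at equal length, against 21.6% and 2.50% in HSC libraries 1 and 2.

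Where RefSeq gives a strand (79.9% of the coding genes), the gene end that held the peak was in most cases the start. Of the gene-end peaks of equal-length lists that could be oriented, 98.6% and 99.0% in control LSCs lay at the start, against 90.7% and 54.5% in HSCs. The last value rests on 6 of 11 peaks. A peak that reached both a start and the other end of a gene was counted at the start. Summits within 250 bp of a start made up 60.2% and 57.2% of the equal-length lists in control LSCs, against 10.2% and 0.385% in HSCs. Over the lists as deposited they made up 24.7% and 29.0% in control LSCs, against 9.28% and 0.385% in HSCs. Most of them lay upstream in control LSCs and in HSC library 1: at equal length the bin from 250 bp upstream to the start held 52.7% and 51.1% of control LSC summits, and 8.88% and 0 of HSC summits. As deposited that bin held 17.7% and 21.4% in control LSCs, against 7.23% and 0 in HSCs. Summits farther than 50000 bp from any start made up 8.78% and 10.6% in control LSCs at equal length, against 45.2% and 56.3% in HSCs. As deposited they made up 25.8% and 27.9% in control LSCs, against 48.1% and 56.3% in HSCs.

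**Figure D2:**
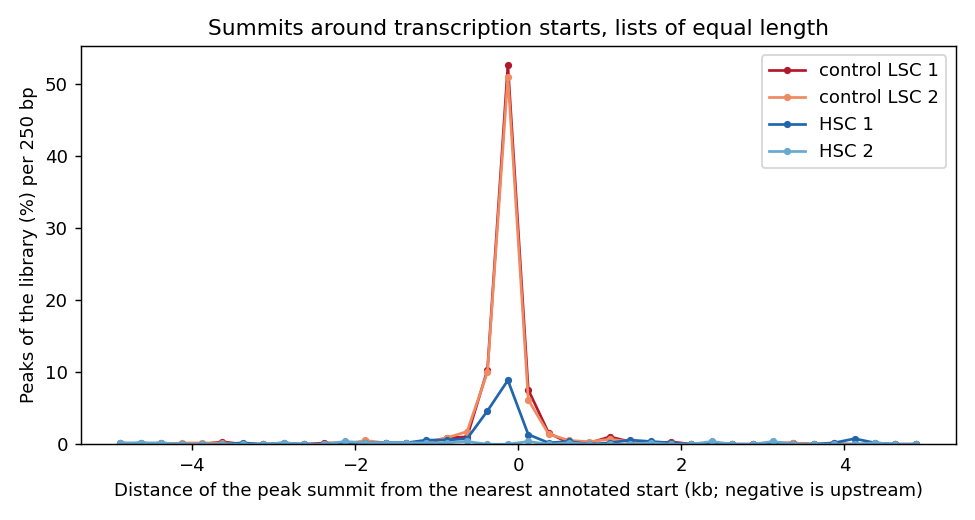
Percent of each library's equal-length peak list per 250 bp of signed distance from the summit to the nearest annotated transcription start (kb, negative is upstream). Both control LSC libraries rise to over 50% just upstream of the start, HSC library 1 reaches 8.88%, and HSC library 2 shows no rise.

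The 2 groups also differed in how far their own libraries matched. In equal-length lists, 68.7% of the peaks of control LSC library 1 overlapped a peak of library 2, and 70.2% the other way. Of the peaks of HSC library 1, 18.9% overlapped library 2, and 19.3% the other way. Across the groups, 18.4% and 18.3% of control LSC peaks (libraries 1 and 2) overlapped HSC library 1, and 2.58% and 3.35% overlapped HSC library 2. At equal length HSC library 1 therefore shared about as many peaks with control LSCs as with the other HSC library. Its peaks as deposited overlapped control LSC libraries 1 and 2 in 44.3% and 31.7% of cases, and HSC library 2 in 11.7%. Within the groups, 25.9% and 63.8% of deposited peaks of control LSC libraries 1 and 2 matched the other library, against 11.7% and 21.2% in HSCs. The deposited lists differ in length. As deposited, 6554 regions were called in both control LSC libraries and 108 in both HSC libraries. Of the control LSC regions 4.04% held a peak of HSC library 1 and 0.809% one of HSC library 2. Of the HSC regions, 71.3% held a peak of control LSC library 1 and 41.7% one of library 2, and 26 held neither. Of the control LSC regions, 95.8% held no HSC peak. These shares rest on single libraries: the share of HSC regions with a control LSC peak was 17.4% with HSC library 2 alone as the HSC group.

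In HSC library 1, the share of control LSC regions that were also called went with their strength. Among the 100 strongest control LSC regions, ranked by the mean percentile of −log10 q in both libraries, 57.0% held a peak of HSC library 1 and 14.0% one of HSC library 2. Among ranks 101 to 200 the shares were 21.0% and 0. Among ranks 801 to 1600 they were 2.50% and 0.500%. Regions at gene ends and distal regions of the top 100 were called in HSC library 1 at like rates, 56.9% of 65 and 57.1% of 35. In HSC library 2 they differed: 0 of 65 at gene ends, which allows up to 5.58% (upper Wilson limit), and 14 of 35 distal regions. The top 100 include narrow regions called in all 4 libraries and in no Nup214-HET library, described below. Those narrow regions, 25 in all, had median percentiles of 99.9 and 99.7 in control LSC libraries 1 and 2. Shares without them were not computed.

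**Figure D3:**
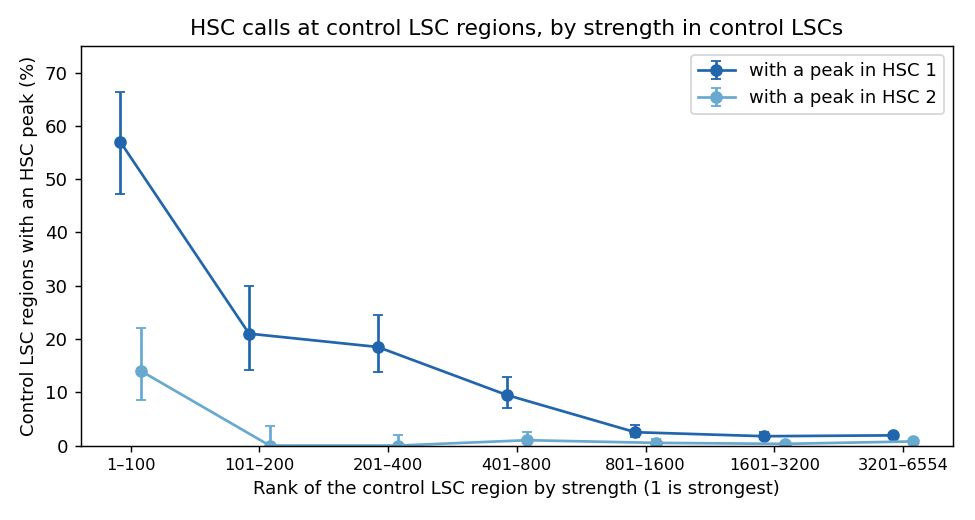
Percent of control LSC regions that hold a peak of HSC library 1 or 2, by rank of the region's strength in control LSCs (1 is strongest; bars are 95% Wilson intervals, counting error alone). The share in HSC library 1 is 57.0% for ranks 1 to 100 and 21.0% for ranks 101 to 200, and 2.50% for ranks 801 to 1600.

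Peaks of HSC library 1 differed in place by whether control LSCs shared them, and those of HSC library 2 were rarely at gene ends in either case. Of the 927 peaks of HSC library 1, 265 lay in peaks of both control LSC libraries, and 56.2% of these were at gene ends. Another 487 overlapped no control LSC peak, and 3.90% of these were at gene ends. In HSC library 2, 51 of 519 peaks lay in peaks of both control LSC libraries, 5.88% of them (3 peaks) at gene ends. Another 389 overlapped none, 1.54% of them (6 peaks) at gene ends. The 50 strongest peaks of HSC library 1 overlapped a control LSC peak in 92.0% of cases and those of HSC library 2 in 84.0%. The same 50 peaks overlapped the other HSC library in 80.0% and 86.0% of cases. In each library most of these 50 peaks lay away from gene ends. They include narrow regions called in all 4 libraries and in no Nup214-HET library, described below. Those narrow regions, 25 in all, had median percentiles of 98.6 and 97.7 in HSC libraries 1 and 2. Shares of the 50 strongest peaks without them were not computed. Among the weakest peaks, from rank 401 on, the shares with a control LSC peak were 31.9% and 3.36%, and those with the other HSC library 3.23% and 0.

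Genes were then sorted by where their ends were called. Of 21883 coding genes, 9478 (43.3%) and 4793 (21.9%) had a gene-end peak in control LSC libraries 1 and 2, against 221 (1.01%) and 13 (0.0594%) in HSC libraries 1 and 2. Both control LSC libraries called 4648 genes (21.2%), named the control LSC set here, and both HSC libraries called 3 (0.0137%). Of the control LSC set, 197 genes (4.24%) were also called in HSC library 1 and 5 in HSC library 2, 201 in all, and 4447 in neither; without control LSC library 2 the last count was 9265, since 1 library then had to call a gene. Seen from the other side, 89.1% of the genes of HSC library 1 belonged to the control LSC set. The shared genes rest on HSC library 1: without it 5 were left, and 6 were left when all libraries had the same summit limit. They were strong in control LSCs, at median percentiles of 98.6 and 96.4 (libraries 1 and 2), against 88.3 and 69.8 for the genes not called in HSCs.

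The strongest shared genes came from several cell functions. At Csnk1g2 (casein kinase 1 gamma 2; chromosome 10, gene at 80622676 to 80640771) the peak had a fold enrichment of 16.6 and 19.7 in control LSC libraries 1 and 2 and 11.9 in HSC library 1. Folds are the authors' values and rank peaks within a list. They come from lists of unlike depth, so folds printed side by side describe each peak within its own list and give no size of a difference between libraries. Hdgfl2 and Ubxn6, a cofactor of the p97 segregase, are divergent neighbours on chromosome 17 and shared 1 peak, with folds of 12.8 and 13.3 in control LSCs and 10.0 in HSC library 1. Relb, a subunit of noncanonical NF-κB, had 14.2 and 18.9 in control LSCs and 9.28 in HSC library 1. Brpf1, a scaffold of the MOZ and MORF acetyltransferase complexes, shared a peak with its neighbour Cpne9, with 15.3 and 14.4 in control LSCs and 8.68 in HSC library 1. Napa, which acts in the disassembly of SNARE complexes, had 17.3 and 14.8 in control LSCs and 8.53 in HSC library 1. None of these was called in HSC library 2. Fam72a and Srgap2 shared 1 peak (13.8 and 13.8 in control LSCs, 8.88 in HSC library 1), as did Gmfg and Samd4b (15.0 and 14.9 in control LSCs, 8.97 in HSC library 1). Neighbours that share a peak are not separate observations. The remaining gene of the 12, Wls, was called in all 4 libraries and is described with the regions of that kind.

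Many strong control LSC genes had no HSC call. In equal-length lists, 584 genes (2.67%) and 545 (2.49%) were called in control LSC libraries 1 and 2, against 141 (0.644%) and 13 (0.0594%) in HSC libraries 1 and 2. Of the 393 genes (1.80%) called in both equal-length control LSC lists, 281 had no gene-end peak in either HSC list as deposited. Gpbp1 led them, at percentiles of 99.9 and 99.8 in control LSC libraries 1 and 2 and with no peak in HSCs. Tmem123 had folds of 18.1 and 20.6 in control LSCs. Adam9, a metalloprotease that sheds surface proteins, and its neighbour Tm2d2 shared a peak with 21.1 and 20.3. Cbwd1 had 23.2 and 18.7. Birc6, a giant ubiquitin ligase that inhibits apoptosis, had 15.6 and 17.8. Ap2a1, a subunit of the clathrin adaptor AP-2, and Tsks shared a peak with 16.7 and 15.8. Rab8a had 18.9 and 15.7, and Ntmt1, a methyltransferase of protein N termini, had 18.6 and 18.3. Each lay above the value of 99.4 on the percentile scale of its list in both control LSC libraries. Gpbp1 and Tmem123 had no gene-end peak in the Nup214-HET libraries either.

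Few genes were called in HSCs and not in control LSCs. Of the genes of either HSC list, 231 in all (1.06%), 16 had no gene-end peak in a control LSC library. Duxf3, of the multicopy Dux family, and its neighbour LOC100504180 on chromosome 10 ranked first by the percentile of −log10 q, with folds of 6.38 and 5.03 in HSC library 1. Reads from near-identical copies make such genes uncertain. Ly86, which encodes the MD-1 partner of RP105 in lymphoid and myeloid cells, had 6.90 in HSC library 1, in a peak beyond the gene's upper end at 37419898 to 37420149 on chromosome 13. Arc, an immediate early gene of neurons, had 6.32 in HSC library 2, and Gdf2, the BMP ligand BMP9, had 5.71 there. Nmi, which interacts with MYC and STAT proteins, had 5.81 in HSC library 1. Slc9b2 (5.89) and Adamts12 (5.66) were also called in HSC library 1 alone. None of these genes was called in both HSC libraries. The 3 genes that were are Wls and the predicted genes Gm32584 and Gm51572. Gm32584 had 14.9 in control LSC library 1, no peak in control LSC library 2, and 26.1 and 19.4 in HSC libraries 1 and 2. Gm51572 had 7.28 in control LSC library 1, none in library 2, and 13.1 and 10.1 in HSCs.

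Gene lists chosen for these cells are given as counts beside the share of all coding genes (43.3% and 21.9% in control LSCs, 1.01% and 0.0594% in HSCs). Splicing factors were called often: 44 and 30 of 46 had a gene-end peak in control LSC libraries 1 and 2, against 6 and 0 in HSC libraries 1 and 2. The 6 are Sf1, Hnrnpc, Hnrnpa2b1, U2af2, Ddx5 and Hnrnpa1, which recognise the branch point, the polypyrimidine tract or pre-mRNA at large, or unwind RNA. At Sf1 the fold was 14.6 and 16.2 in control LSCs, with 7.86 in HSC library 1. Hnrnpc had 14.6 and 12.5 in control LSCs and 7.66 in HSC library 1. Nucleoporins were called in 27 and 16 of 31 cases in control LSCs, against 2 and 0 in HSCs. The 2 are Nup98, itself a leukemia fusion partner, with 17.3 and 11.3 in control LSCs and 4.25 in HSC library 1, and Tpr of the nuclear basket, with 14.5 and 8.53 in control LSCs and 4.12 in HSC library 1.

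Other lists of broadly used genes were likewise called in control LSCs and hardly in HSCs. Autophagy genes were called in 26 and 17 of 28 cases in control LSCs, against 2 (Wipi1 and Nbr1) and 0 in HSCs. Replication genes gave 33 and 21 of 40 in control LSCs, against 2 (Gins2 and Mcm4) and 0 in HSCs. Translation initiation factors gave 36 and 24 of 38, against 1 (Eif4a1) and 0, and chromatin regulators 43 and 31 of 52, against 1 (Ep400) and 0. Ribosomal protein genes gave 76 and 48 of 87, against 1 (Rps19) and 0, and cell cycle genes 28 and 15 of 34, against 1 (E2f3) and 0. Immediate early genes gave 21 and 17 of 25, against 1 (Klf6) and 0. Among genes that protect cells from ferroptosis, a death by lipid peroxidation, 19 and 11 of 29 were called in control LSCs, against 1 (Vkorc1l1, which reduces vitamin K) and 0 in HSCs; genes that drive ferroptosis gave 24 and 9 of 28, against 0 and 0. Olfactory receptor genes, silent in blood, gave 8 and 2 of 1106, against 0 and 0. Chaperones gave 61 and 40 of 81 in control LSCs, against 1 (Hspbp1) and 1 (Dnajc3) in HSCs.

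The remaining lists are given for completeness. With 0 and 0 in HSCs, RNA polymerase II, Mediator and general factors gave 42 and 21 of 46 in control LSCs, and p53 targets 20 and 10 of 25. Genes of the BCL2 family and survival gave 15 and 9 of 20, proteasome genes 40 and 19 of 48, and complex I genes of the respiratory chain 34 and 21 of 38. Mitochondrial ribosomal protein genes gave 59 and 31 of 77, aminoacyl-tRNA synthetases 31 and 17 of 35, histone genes 64 and 42 of 102, and keratins 2 and 1 of 109, again with 0 and 0 in HSCs. Many of the histone genes are near-identical copies, so their reads may be shared. The list also holds histone variant genes, such as H2ax and H2az1. Genes with Zfp-type symbols, chosen by symbol and not by a KRAB or other protein domain, gave 229 and 97 of 421 in control LSCs. In HSCs 3 (Zfp78, Zfp367 and Zfp143) and 0 were called. Zfp143, a factor of many promoters, had folds of 20.7 and 21.1 in control LSCs, with 6.26 in HSC library 1. Solute carriers gave 157 and 68 of 369 in control LSCs, against 6 and 0 in HSCs, and vomeronasal receptors 4 and 2 of 353, against 1 (Vmn2r2) and 0.

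Among the lists of cell identity and of MLL-fusion targets, 1 gene had a gene-end peak in HSCs. Of all coding genes, 1.01% and 0.0594% had one in HSC libraries 1 and 2, so lists this short would hold few or none at that share. HSC identity genes had a gene-end peak in 14 and 7 of 30 cases in control LSCs, against 0 and 0 in HSCs. The control LSC shares, 46.7% and 23.3%, lay near the 43.3% and 21.9% of all coding genes. The HSC identity genes called in both control LSC libraries include Etv6 (folds 6.56 and 3.98), Lyl1 (6.63 and 8.72), Msi2 (9.58 and 4.45), Runx1 (6.02 and 7.71) and Egr1 (5.26 and 6.26). MLL-fusion targets gave 12 and 3 of 22, against 1 (Runx2, fold 5.08 in HSC library 1) and 0. The Runx2 peak lay beyond the gene's lower end, at a percentile of 31.6 in its list. Inside its span the gene was called the other way round: 10 times in control LSC library 1, 2 times in library 2 and never in HSCs. Sox4, Myc and Men1 were called in both control LSC libraries, and Meis1, Flt3, Myb and Bcl2 in control LSC library 1. Granulocyte and monocyte genes gave 11 and 3 of 22, against 0 and 0. The 3 are Cebpa, a master factor of granulocytes, with folds of 10.3 and 5.07, Mpo, a granule enzyme, with 6.30 and 5.33, and Csf2ra, the GM-CSF receptor chain, with 9.97 and 10.5. Erythroid genes gave 3 and 1 of 12, megakaryocyte genes 5 and 3 of 9, B cell genes 3 and 0 of 10, T and NK cell genes 4 and 1 of 12, and endothelial and stromal genes 1 and 1 of 12, against 0 and 0 in HSCs for each. The HSC lists, with no gene-end peak at an HSC identity gene, give no check of the cell type label. In control LSCs the granulocyte and monocyte genes were called in 50.0% and 13.6% of cases, beside 43.3% and 21.9% of all genes, so these peaks give no check of that label either.

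**Figure D4:**
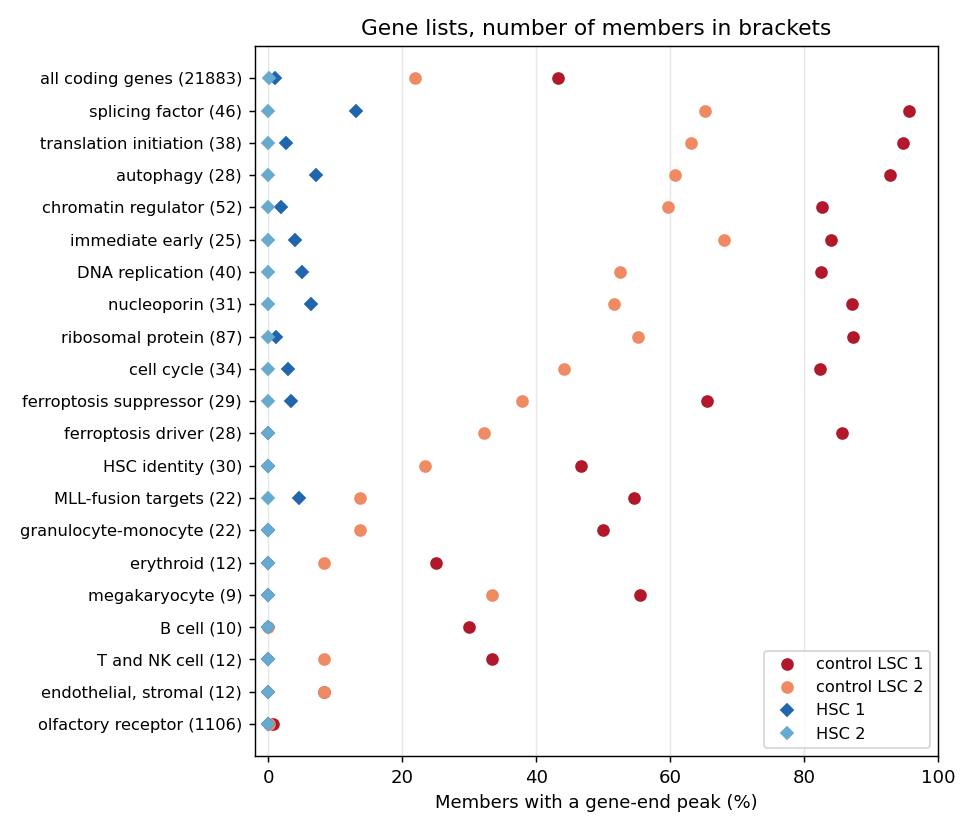
Percent of the members of each gene list (number in brackets) with a gene-end peak, as deposited, in control LSC libraries (circles) and HSC libraries (diamonds), with all coding genes in the top row. Splicing factors have 44 and 30 of 46 members in control LSCs, against 6 and 0 in HSCs, and HSC identity genes 14 and 7 of 30, against 0 and 0. All coding genes have 43.3% and 21.9% in control LSCs, against 1.01% and 0.0594% in HSCs.

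Promoter letters differed between peak classes. Over the RefSeq windows of 300 bases, the ETS core was in 16 of 146 windows (11.0%) called in both control LSC libraries and an HSC library, and in 902 of 3728 (24.2%) called in both control LSC libraries and no HSC library. In the 146 strongest windows of that second class it was in 21.2%. It was in 11.6% of all 21262 windows and in 4.58% of the 13039 with no peak in the 4 libraries. The CCAAT box was in 56.2%, 49.5%, 45.9%, 38.2% and 35.9% in the same order, and the GC box (GGGCGG) in 84.9%, 77.2%, 89.0%, 46.2% and 30.3%. The AP-1 motif (TGANTCA) was in 3.42%, 3.49%, 2.05%, 6.99% and 9.06%. The median observed over expected CpG ratio was 0.865, 0.833, 0.834, 0.567 and 0.303. The GATA motif (AGATAA) was in 3.42%, 3.62%, 1.37%, 9.65% and 12.6%, the RUNX motif (TGTGGT) in 9.59%, 11.6%, 9.59%, 15.0% and 16.7%, and the TATA motif (TATAAA) in 6.16%, 4.83%, 6.16%, 12.6% and 17.1%. The E-box (CACGTG) was in 13.0%, 11.7%, 11.6%, 7.84% and 5.45%. The CRE was in 5.48%, 4.94%, 2.05%, 2.23% and 0.997%, and the NRF1 motif in 4.11%, 4.72%, 2.05%, 2.35% and 0.936%. The YY1 motif was in 2.05%, 2.60%, 2.05%, 1.21% and 0.307%. The class with an HSC library rests almost wholly on HSC library 1, whose peaks overlapped 152 windows, against 2 for HSC library 2. Both strands were searched, motifs may overlap each other, windows of alternative starts of a gene can overlap, and no test was run.

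Away from gene ends, control LSCs held 2674 distal regions, of which 2550 had no HSC peak; this count was 6085 without control LSC library 1 and 16044 without library 2, since 1 library then had to call a region. Of these 2550, 1334 lay inside a coding gene and 1216 between genes, and the median distance to the nearest coding gene end was 13619.5 bp. Distal peaks fell inside genes in 51.4% and 48.4% of cases in control LSCs, against 41.5% and 40.5% in HSCs, a difference of 8.89 percentage points (exact permutation test, two-sided, p = 0.333, n = 2 per group). For scale, whole gene spans, with their ends, cover 37.9% of these chromosomes, near the HSC shares. Of the distal control LSC regions, 9.61% were more than 100 kb from a coding gene end, against 32.7% of the 104 distal HSC regions.

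By the percentile of −log10 q, the first distal control LSC region without an HSC peak lay 12231 bp from Ifngr2, which encodes a chain of the interferon gamma receptor (chromosome 16, 91534585 to 91534828), with folds of 33.2 and 25.7. The next lay inside Mesd (chromosome 7, 83891738 to 83892325; 18.7 and 16.9), inside Rnf126 (chromosome 10, 79766945 to 79767570; 17.4 and 19.2), inside Impact (10.6 and 13.5) and inside Iffo2 (chromosome 4, 139574256 to 139574695; 19.3 and 17.2). Others lay inside Zbtb7a, which encodes the repressor LRF of blood cell fate (chromosome 10, 81137300 to 81137800; 13.0 and 13.0), near Cct8l1 (19.2 and 18.1) and near Cspg5 (34.5 and 19.9). The regions near Ifngr2 and Cspg5 were narrow, 244 and 166 bp, and these 2 and the one in Iffo2 held no Nup214-HET peak.

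The share of genes with such a region as their nearest differed between the lists, with no test run. A distal control LSC region without an HSC peak was nearest to 2064 of all 21883 coding genes (9.43%). The same held for 10 of 30 HSC identity genes (33.3%), 7 of 22 MLL-fusion targets (31.8%) and 7 of 22 granulocyte and monocyte genes (31.8%). It held for 17 of 25 immediate early genes (68.0%), 10 of 34 cell cycle genes (29.4%) and 0 of 1106 olfactory receptor genes. Other lists of blood cells lay nearer to the share of all genes or below it, with 2 of 12 erythroid genes (16.7%), 1 of 9 megakaryocyte genes (11.1%), 1 of 12 T and NK cell genes (8.33%) and 0 of 10 B cell genes. Lists that mark no cell type also reached high shares, with 8 of 29 ferroptosis suppressors (27.6%), 7 of 28 ferroptosis drivers (25.0%) and 5 of 20 survival genes (25.0%). These shares do not take the space between genes into account, and nearness does not assign a region to a gene. Runx1 had 4 such regions, of which that at 92715577 to 92716052 on chromosome 16, inside the gene, had folds of 8.49 and 6.55. Cebpb, a factor of granulocytes and stress, had 4, between 63508 and 114391 bp away, of which that at 167759897 to 167760299 on chromosome 2 had 13.3 and 8.56. Mef2c had 2 inside the gene, the stronger at 83572011 to 83572425 on chromosome 13 with 16.1 and 11.6. Tle3, a corepressor, had the most, 7. A distal HSC peak of either library was nearest to 1024 coding genes (4.68%) and to 2 of 30 HSC identity genes (6.67%, Runx1 among them). The same held for 3 of 22 MLL-fusion targets (13.6%; Bcl2, Pbx3 and Cdk6) and 3 of 22 granulocyte and monocyte genes (13.6%; Fcgr3, Itgam and Csf2ra). These HSC shares need a peak in 1 library, and the control LSC shares above need both libraries, so they are not like measures.

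The sites that HSC libraries shared with control LSCs and with each other were of another kind. In all 4 libraries 40 regions were called, of which 1 was at a gene end, 16 lay inside genes and 23 between genes. Of the 40, 25 held no peak of either Nup214-HET library although these held 5452 and 4681 peaks. Those 25 were narrow, with a median of 291 bp, and had high folds: medians were 32.6 and 21.2 in control LSCs, against 23.0 and 23.1 in HSCs. The 15 with a Nup214-HET peak had a median width of 645 bp and median folds of 6.91 and 5.63 in control LSCs, against 8.10 and 6.53 in HSCs. By the same percentile the first lay between genes on chromosome 12 (3109872 to 3110125), with 58.2 and 57.5 in control LSCs, against 45.4 and 40.8 in HSCs. The next lay inside Chl1 on chromosome 6 (103649048 to 103649329; 58.2 and 54.7 in control LSCs, 45.1 and 40.3 in HSCs), near Adgre5 on chromosome 8 (53.7 and 45.3, and 40.6 and 37.9) and inside Flt1 on chromosome 5 (54.6 and 41.9, and 41.4 and 36.8). Those inside Ttc21b, near Creb3l1 and near Gm40892 had folds of 30.5 or more in every library of the 4. The region on chromosome 2 at 98662237 to 98662827 was among the strongest by q at lower folds, 5.62 and 4.41 in control LSCs, against 3.35 and 2.93 in HSCs. Wls, which carries Wnt proteins to the cell surface, owes its place among shared genes to such a region, 739 bp beyond its upper end on chromosome 3 (159939405 to 159939695). Its folds were 32.3 and 10.6 in control LSCs, against 25.0 and 25.1 in HSCs. What these narrow regions are was not tested, and no sequence of them was read.

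**Figure D5:**
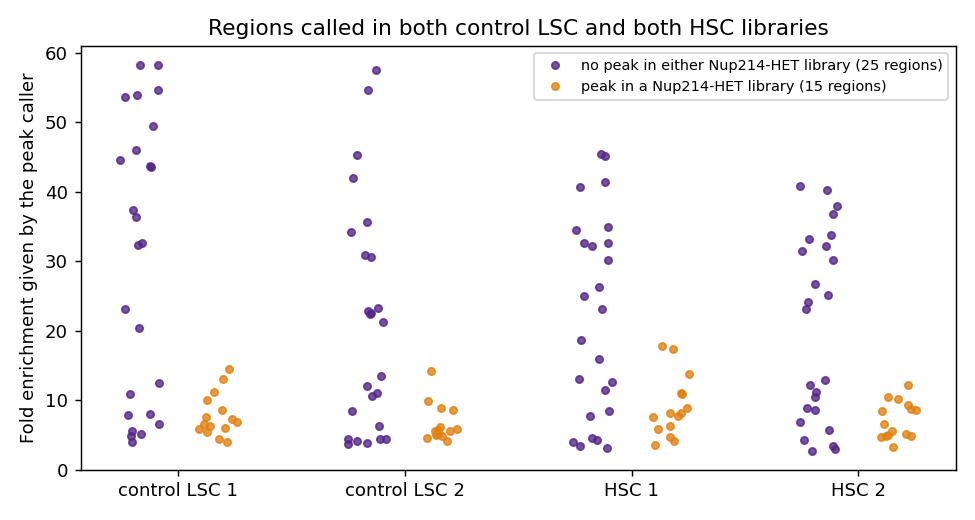
Fold enrichment given by the peak caller (y axis) of the 40 regions called in both control LSC and both HSC libraries, in each library; each point is a region, spread sideways to be seen. The 25 regions without a Nup214-HET peak reach 58.2 in control LSC library 1 and 45.4 in HSC library 1, and the 15 with one reach 14.5 and 17.8.

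The 26 regions called in both HSC libraries and in no control LSC library were all distal, 12 inside genes and 14 between them. Their median folds were 6.16 and 6.72 in HSCs, and 16 of them held a Nup214-HET peak. Ranked by the percentile of −log10 q, the first lay on chromosome 16 (3116288 to 3116594; 13.8 and 11.2 in HSCs), chromosome 9 (3008440 to 3008774; 2.40 and 2.31) and chromosome 14, inside the predicted gene Gm10410 (4968925 to 4969428; 14.1 and 10.1). The folds of the chromosome 9 region were the lowest of the 26. Those near Scaf8 on chromosome 17 (3081647 to 3082161; 8.61 and 10.7) and near Galr1 (9.92 and 8.22) were also called in both Nup214-HET libraries.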

How the data were processed

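NUP214 CUT&Tag of sorted mouse bone marrow cells was deposited as 1 peak list per library. Bowtie2 2.2.9, FastQC 0.11.5, ChIPseeker and MACS2 are listed, per the submitters' processing notes, together with mm10. For ChIPseeker and MACS2 the version, and for all tools the settings, the handling of duplicate reads and any control sample, are not given in the sources used. The authors called peaks per library, per the layout of the files, which have no header. For each peak the authors deposited a linear ratio (fold enrichment over background), its significance as −log10 of p and of q, and a whole-number score; starts, ends and summit offsets are other deposited columns. How reads were aligned, filtered and extended acts on every value through these lists alone.

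From them were computed overlaps (at least 1 bp), regions of both libraries of a group, places relative to 21883 RefSeq protein-coding genes (GRCm38.p6; 1 kb from either outermost end; parts of a gene were not distinguished) and lists cut to 634 peaks by −log10 q, with ties broken by −log10 p and fold. Summit pileups were recovered from fold and −log10 p by the MACS2 formula (97.5% to 99.95% of peaks came out as whole reads, allowing a relative error of 0.0001); the lowest background over the smallest width is the implied depth. Starts came from 21262 RefSeq promoter windows. Groups were compared by exact permutation of libraries. The members, gene lists and tests were chosen with earlier results of these data known. Named genes are those with the highest mean percentile of −log10 q in the libraries that define their class (12 shared, 10 control LSC and 8 HSC genes, without Gm-number and Rik names), plus all 3 genes of both HSC libraries, members of the 33 lists called in HSCs and the strongest distal regions of each class. Acss2 and the genes quoted from lists for control LSCs were named after their values were seen. The overlap and counting steps were tested on simulated data. Python 3.11.15, numpy 2.4.6, pandas 2.3.3, scipy 1.17.1 and matplotlib 3.10.9 were used. Alternatives covered list length, a −log10 q of at least 2, the common regions, overlap of 50%, windows of 0.5 and 2 kb, promoter windows, the ranking column, each library left out, the replicate block, and, chosen after seeing the data, a matched summit limit, a distal limit of 10 kb and narrow shared regions set aside. Results for 1 withheld item are not reported here.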

Additional observations from a re-analysis of the deposited data

Results flagged for a closer look

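Peaks on unplaced contigs were outside every comparison and were above the limit that a count of 0 allows (3 peaks), with no library made without the antibody to set them against. Control LSC libraries 1 and 2 held 52 and 42 such peaks, and HSC libraries 1 and 2 held 50 and 30. They were 0.204% and 0.397% of the deposited lines in control LSCs, against 4.57% and 4.52% in HSCs, and 30 peaks in each Nup214-HET library. Their number was thus of the same size in every list while the lists differed in length.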

How the results depend on the processing

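Of 95 alternative values, 82 kept their side or moved by less than the limit set for them and 13 moved. No difference between the groups changed direction under any alternative run. With lists cut to equal length, HSC peaks lay in 13.5% of control LSC regions and control LSC peaks in 16.3% of HSC regions. The same cut left 309 genes of control LSCs without and 84 with an HSC call, and 47 distal control LSC regions without an HSC peak. With the common regions kept, 77.9% of HSC regions held a control LSC peak. With the same summit limit for all libraries 6 shared genes were left, and with a distal limit of 10 kb 1476 distal control LSC regions; fewer features qualify by construction in both. Leaving out each library in turn gave 2561 to 16044 distal regions, 4451 to 9265 genes without and 5 to 213 with an HSC call, and 17.4% to 71.3% of HSC regions with a control LSC peak. The largest of these counts came without control LSC library 2, and the 5 without HSC library 1. The same runs gave differences of 3.91 to 5.19 (log2 peak number), 18.8 to 35.2 (gene-end percentage points) and 58.4 to 77.5 (the same at equal length).

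The library numbers are shared between groups, but no label ties a number to an animal, batch or day, and 2 pairs cannot show it. With the replicate block the differences were 4.55 in log2 peak number, 27.0 and 68.0 percentage points at gene ends (as deposited and at equal length) and 8.89 for distal peaks inside genes, each with an exact sign-flip p of 0.5, the smallest that 2 pairs allow. Neither fit can pass a usual threshold with this number of libraries. Sites present in HSCs but under the callable limit of these lists cannot be told from absent ones.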

Other observations

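Genes shared between control LSCs and an HSC library were also mostly called in Nup214-HET LSCs. Of the 201 shared genes, 171 (85.1%) had a gene-end peak in both Nup214-HET libraries, and of the 4447 control LSC genes without an HSC call 1096 (24.6%). Of the 281 strong control LSC genes without an HSC call, 182 (64.8%) did.

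Mouse chromosomes start at the centromere, and the first peak of any list lay at base 3000003. Peaks below 3.2 Mb were 25 of 25312 and 12 of 10394 in control LSCs (0.0988% and 0.115%), against 16 of 927 and 14 of 519 in HSCs (1.73% and 2.70%), with the common regions set aside. Of the 26 regions of both HSC libraries with no control LSC peak, 5 lay there, on 5 chromosomes. The counts per library were thus of like size while the shares differed.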
